A study of Mus musculus with 5 samples.

Results

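Complement is a set of plasma and cell-surface proteins that tags microbes and dying cells for removal. C1q, built from the chains encoded by C1qa, C1qb and C1qc, starts its classical pathway, and macrophages are a major source of it, whereas the liver makes most other components. c-Maf is a basic leucine zipper transcription factor of macrophages that binds DNA as a dimer at Maf recognition elements, which share the letters TGCTGA. The peaks described here lie in or within 50 kb of 9 complement genes, taken from a named list and placed by their mm10 RefSeq spans. The 9 genes are the 3 C1q genes and 6 others, C3, C3ar1, C5ar1, Cfp, C2 and Cfb, out of 21887 protein-coding genes on assembled chromosomes. They were within 50 kb of 23 of the 115354 peaks deposited.

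The cells were bone marrow macrophages of the C57Bl/6 background. Their source and cell type labels call them M2, an alternative activation state reached by polarization in culture, the polarizing agent is not given in the labels, and the sample titles read M0, which the labels do not explain. Fixed, sonicated chromatin was precipitated with a c-Maf antibody (2 libraries, numbers 3 and 4) or with normal rabbit IgG as isotype control (2 libraries, numbers 3 and 4), and 1 input library, number 4, served as control for every peak list. No group carried a mutation or a treatment that the others lacked, so by the labels the 4 precipitated libraries differed in the antibody and the replicate number. The numbers are called biological replicates in the design text, and no label says whether same-numbered libraries share an animal. The peak lists hold no expression values, so the cell type label could not be checked by marker genes.

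The 4 lists were of unequal length at nearly equal depth. The c-Maf antibody libraries held 22017759 and 21655683 filtered tags and 23434 and 17620 peaks, and the isotype libraries held 21833446 and 21779401 tags and 58732 and 15568 peaks. Overlapping peaks of any lists (1 bp or more) were joined to regions. Those called with the c-Maf antibody in numbers 3 and 4 alike, and in neither isotype list, are termed c-Maf-only regions. There were 491 of these, against 409 isotype-only regions defined the other way round. A peak's fold enrichment is the authors' ratio of its summit pileup to the local input level, and its −log10 q is the authors' p-value after correction over that library.

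The C1q cluster had a c-Maf-only region at the start of C1qb and another at the start of C1qc, and none of the 6 other genes had such a region within 50 kb. The regions were 213 bp and 159 bp long, against a median of 125 bp over all c-Maf-only regions, and lay 6578 bp apart. C1qb and C1qc are read from the minus strand of chromosome 4, so both are transcribed from the upper boundary downwards (C1qb, 136880126 to 136886200; C1qc, 136889801 to 136892936; C1qa, 136895916 to 136898844). The start in the promoter table is 136886200 for C1qb, which is that boundary, and 136892914 for C1qc, slightly inside it. The letters of the regions outside the gene spans are shown because they are the DNA that the c-Maf antibody peaks covered. Each stretch joins the peaks of both numbers, and at C1qc the peaks shared only 136892965 to 136893042. They are written 5′ to 3′ on the coding strand, from RefSeq promoter sequences of the GRCm38.p6 build, which has the coordinates of mm10. Capitals mark TGCTGA in C1qb and the reverse complement of GAGGAAG, a PU.1 type motif of myeloid genes, in C1qc.
C1qb, chr4:136886201-136886374, minus strand: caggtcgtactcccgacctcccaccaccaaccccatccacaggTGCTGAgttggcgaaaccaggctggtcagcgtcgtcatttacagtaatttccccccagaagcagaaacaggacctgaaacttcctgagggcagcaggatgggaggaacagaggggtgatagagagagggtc
C1qc, chr4:136892952-136893110, minus strand: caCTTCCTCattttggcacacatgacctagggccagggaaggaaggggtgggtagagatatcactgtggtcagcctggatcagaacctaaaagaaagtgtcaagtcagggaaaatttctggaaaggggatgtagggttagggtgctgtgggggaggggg

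At C1qb, which encodes the B chain of C1q, the c-Maf antibody peak of number 3 ran from 136886162 to 136886374 and that of number 4 from 136886193 to 136886368. Both straddled the annotated start. The number 3 peak had 39 bases inside the gene and 174 before it, with its summit 21 bp inside, and the number 4 peak had 8 bases inside and 168 before it, with its summit 21 bp before the start. The summit pileup was 7.76 scaled tags in number 3 and 6.91 in number 4. Since MACS scaled each library by a fixed factor, these pileups are 8 fragments (exact 95% Poisson interval 3.45 to 15.8) and 7 fragments (2.81 to 14.4), intervals that cover counting error only. The fold enrichment was 5.38 in number 3 and 4.94 in number 4. The summit counts differed by far less than their counting error. A c-Maf-only region needs a peak in both lists, so this closeness is no separate evidence. The −log10 q was 1.24 and 0.62, so neither peak reached a q-value of 0.05, which is 1.30 on this scale.

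At C1qc, which encodes the C chain, the number 4 peak ran from 136892952 to 136893042 and the number 3 peak from 136892965 to 136893110. They began 16 bp and 29 bp before the upper boundary of the gene and did not enter it. Both had 8 fragments at the summit (exact Poisson interval 3.45 to 15.8), which is a pileup of 7.76 in number 3 and 7.89 in number 4. The fold enrichment was 5.46 in number 3 and 4.45 in number 4. The lower fold in number 4 went with a higher local input level, 0.999 scaled tags against 0.604 in number 3, at the same number of fragments. The −log10 q was 1.35 in number 3, past a q-value of 0.05, and 0.23 in number 4, which was not.

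No peak lay inside C1qa, which encodes the A chain. Its nearest c-Maf antibody peaks were those at the start of C1qc, 2806 bp (number 3) and 2874 bp (number 4) from its lower boundary. The c-Maf-only region within 5 kb of C1qa is therefore the C1qc region counted again. The nearest isotype peaks to C1qa lay 50.6 kb and 51.0 kb away.

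**Figure D1:**
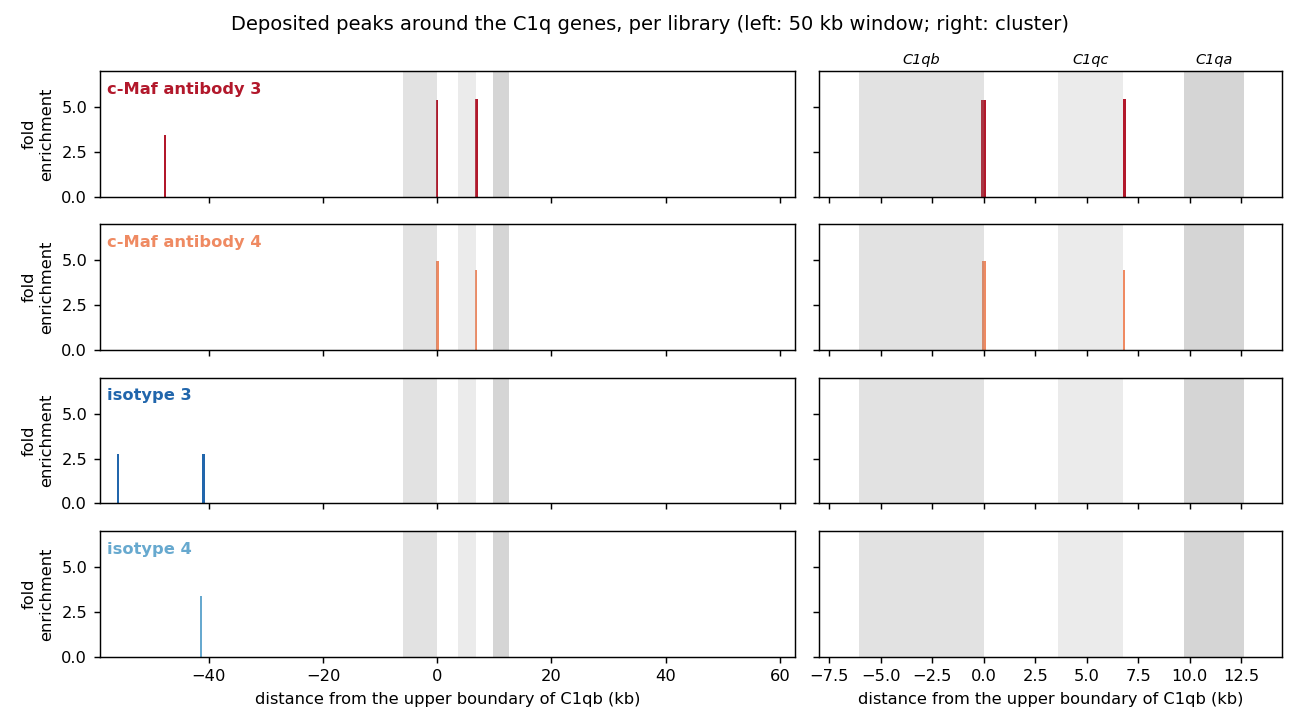
Fold enrichment of each deposited peak (vertical axis, authors' ratio) against distance from the upper boundary of C1qb in kb, in 1 row per library, with gene spans shaded; bars are drawn wider than the peaks on the left for visibility. Both c-Maf antibody libraries had bars at the starts of C1qb and C1qc, with folds of 4.45 to 5.46, and the isotype rows have bars only outside the cluster, with folds of 2.77 to 3.38.

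The isotype lists held no peak within 5 kb of a C1q gene, whereas each c-Maf antibody list held 2 there. A list records nothing where no peak was called, so this is not a count of 0 tags. By the Poisson calculation that returned the deposited p-values, and with the input level rescaled to each isotype library's fragment length, about 4 fragments would have passed the p-value cut-off at the C1qb site and 4 or 5 at the C1qc site. A call may also need a minimum length, since the median peak length equalled the fragment length in every list, so these counts are no upper limit for the isotype libraries, whose tags at those summits were not recorded. The rest of the 50 kb around the cluster held weaker peaks, all on the far side of C1qb. The c-Maf antibody library of number 3 had a peak of 5 fragments 41.6 kb from C1qb, inside the non-coding RNA gene Gm31536, with a fold enrichment of 3.46. Isotype number 3 had peaks of 3 fragments at 34.8 kb and at 49.8 kb, the farther inside Ephb2, each with a fold enrichment of 2.77. Isotype number 4 had a single peak of 4 fragments at 35.2 kb, with a fold enrichment of 3.38.

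The C1q peaks stood high in their own lists without being extreme. In number 3 the C1qb peak had a p-value at least as small as that of 96.9% of the peaks and the C1qc peak as that of 97.0%, and in number 4 these shares were 89.1% and 87.0%. The number 3 peak 41.6 kb away stood at 21.95%. Isotype peaks near other members stood as high: those of number 4 near Cfp and Cfb, each with a fold enrichment of 5.45, stood at 97.0% of their list. The peaks at C1qb were long for the c-Maf antibody lists, 213 bp and 176 bp against medians of 63 bp and 60 bp, and at least as long as 99.6% and 99.5% of the peaks. The peaks at C1qc were 146 bp (number 3) and 91 bp (number 4), at least as long as 97.6% and 82.1% of the peaks of their lists. Among the 491 c-Maf-only regions, the mean fold of the 2 libraries was 5.16 at C1qb and 4.95 at C1qc, ranks 82 and 108, against a median of 4.25. The summits of the 2 libraries were 42 bp apart at C1qb and 57 bp at C1qc, against a median of 31 bp over all c-Maf-only regions.

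**Figure D2:**
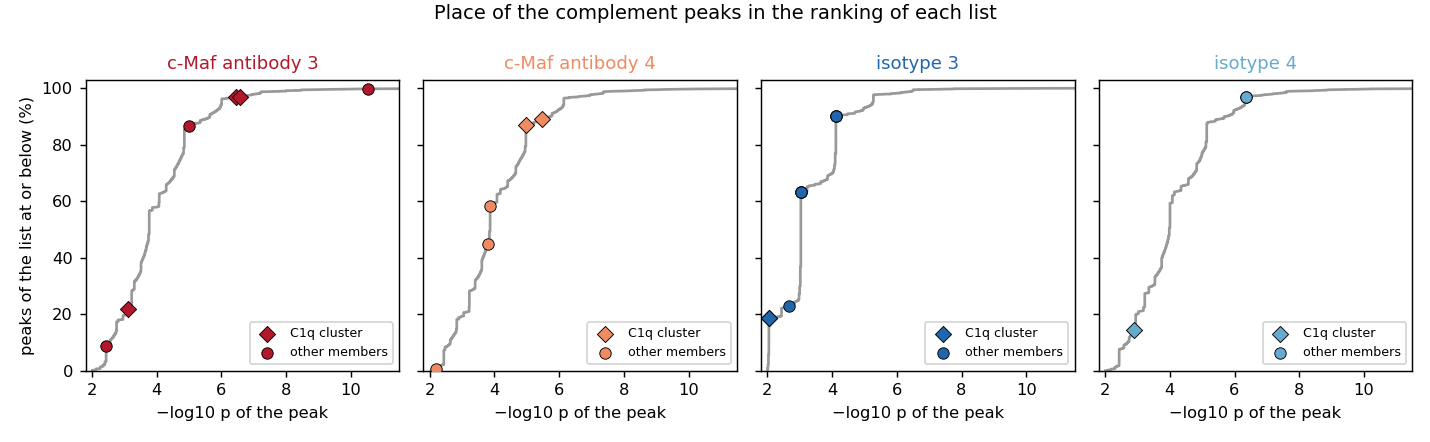
For each library, the share of its peaks with a −log10 p at or below a given value (grey line, percent), with the peaks within 50 kb of the C1q genes as diamonds and of the other members as circles; peaks of equal p overlap. The 4 diamonds at the C1q starts lie between 87.0% and 97.0%, and the highest circle, with the c-Maf antibody in number 3, is the peak upstream of C3ar1 at 99.8%.

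The share of all genes with such regions sets the background for these counts. Of the 9 members, 3 were within 50 kb of a c-Maf-only region, as were 3.17% of all protein-coding genes. Within 5 kb the counts were again 3 of 9 members, against 1.22% of all genes. At least 2 c-Maf-only regions within 50 kb were found for the same 3 members, against 0.361% of all genes. The 3 genes are neighbours that share 2 regions, so they are 1 locus and not 3 separate cases. No member had an isotype-only region within 50 kb, which 1.45% of all genes had. On assembled chromosomes, 31 (6.55%) of the c-Maf-only regions had another c-Maf-only region within 10 kb, and the C1q regions are 2 of those 31.

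A stricter place is the promoter window, from 250 bp before to 50 bp after an annotated start. Of 32851 windows in the RefSeq table, 16 (0.0487%) were overlapped by a c-Maf-only region, and those of C1qb and C1qc were 2 of the 16, out of 6 members with a window. An isotype-only region overlapped 0.00609% of the windows and none of the 6 members. The 16 windows were met by 13 regions, among which the C1qb region ranked 4 and the C1qc region 5 by mean fold, against a median of 4.48. Taken list by list, the c-Maf antibody peaks of number 3 met the windows of C1qb, C1qc and C3ar1 (0.578% of all windows), and those of number 4 met C1qb and C1qc (0.353%). The isotype peaks of number 3 (0.743% of all windows) and number 4 (0.225%) met none of the members' windows.

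The other complement genes were set against the cluster to see whether the C1q pattern extended to components and receptors elsewhere. C3ar1, which encodes the receptor for the C3a fragment, came nearest to it, in 1 library only. On chromosome 6 (span 122847140 to 122856157, minus strand), the c-Maf antibody library of number 3 had a peak at 122855987 to 122856147, inside the gene and ending 10 bp short of its start. It had 8 fragments at the summit (exact Poisson interval 3.45 to 15.8) and a fold enrichment of 4.38, with a −log10 q of 0.37. A second peak of the same library lay 6865 bp upstream, at 122863022 to 122863127, between C3ar1 and Necap1. It had 11 fragments (5.49 to 19.7), a fold enrichment of 7.45 and a −log10 q of 4.46, the highest fold among the 23 peaks. The c-Maf antibody library of number 4 had no peak at either place. Its only peak near C3ar1 had 6 fragments and a fold enrichment of 3.89 and lay 13.9 kb past the other end of the gene, inside Foxj2, where it overlapped a peak of the isotype library of number 3 with 4 fragments and a fold enrichment of 3.21. Isotype number 4 had no peak within 50 kb of C3ar1, its nearest being 143 kb away.

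The bases just before the start of C3ar1 are shown because the number 3 peak ended 10 bp short of that start, and so did not reach them. Capitals mark TGCTGA, here as its reverse complement, and TGACTCA, a match to the AP-1 motif TGANTCA. Neither match lies inside a peak of any of the 4 lists.
C3ar1, chr6:122856158-122856307, minus strand: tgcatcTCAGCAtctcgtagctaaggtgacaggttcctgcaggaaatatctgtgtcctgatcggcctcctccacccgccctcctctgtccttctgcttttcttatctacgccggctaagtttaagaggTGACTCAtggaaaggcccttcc

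C5ar1, which encodes the receptor for the C5a fragment, had no peak in the gene in any list (chromosome 7, 16246743 to 16259540). Its only peak within 50 kb was a c-Maf antibody peak of number 3 with 5 fragments, 34.9 kb away, with a fold enrichment of 2.93, which was at least as strong as only 8.81% of that list. The number 4 list had nothing nearer than 224 kb. The nearest isotype peaks lay 75.8 kb (number 3) and 62.2 kb (number 4) away.

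C3, the component at which the complement pathways meet, had 1 peak within 50 kb (chromosome 17, 57203967 to 57228136). The c-Maf antibody library of number 4 had 5 fragments and a fold enrichment of 4.02 at 44.3 kb, inside the non-coding RNA gene Gm33566. The nearest c-Maf antibody peak of number 3 lay 59.0 kb away, and the nearest isotype peaks lay 64.8 kb and 277 kb away. The 2 c-Maf antibody libraries therefore shared no peak near C3.

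C2 and Cfb encode related proteases, C2 of the classical and lectin pathways and factor B of the alternative pathway, and lie next to each other on chromosome 17 (C2, 34862602 to 34882100; Cfb, 34856374 to 34862514). Neither gene held a peak of any list. The c-Maf antibody library of number 4 had a peak of 4 fragments inside Stk19, 32.1 kb from Cfb, with a fold enrichment of 2.88, and the nearest peak of number 3 was 160 kb from Cfb and 166 kb from C2. Isotype number 3 had 4 fragments at 37.4 kb from C2, with a fold enrichment of 3.46, and 5 fragments at 46.0 kb from Cfb, with a fold of 4.15. Isotype number 4 had 7 fragments (exact Poisson interval 2.81 to 14.4) 48.3 kb from Cfb, with a fold of 5.45. The isotype peaks near this pair thus had higher folds than the c-Maf antibody peak.

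Cfp encodes properdin, which stabilizes the convertase of the alternative pathway, and is the member with isotype peaks alone (chromosome X, 20925454 to 20931555). With the c-Maf antibody the nearest peaks were 170 kb (number 3) and 294 kb (number 4) away. Isotype number 3 had 4 peaks of 4 or 5 fragments, with fold enrichments of 3.46 to 4.15, and 1 of them lay inside the gene. In isotype number 4 there was 1 peak, of 7 fragments at 40.2 kb, with a fold enrichment of 5.45, which matched the highest isotype fold near any member.

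**Figure D3:**
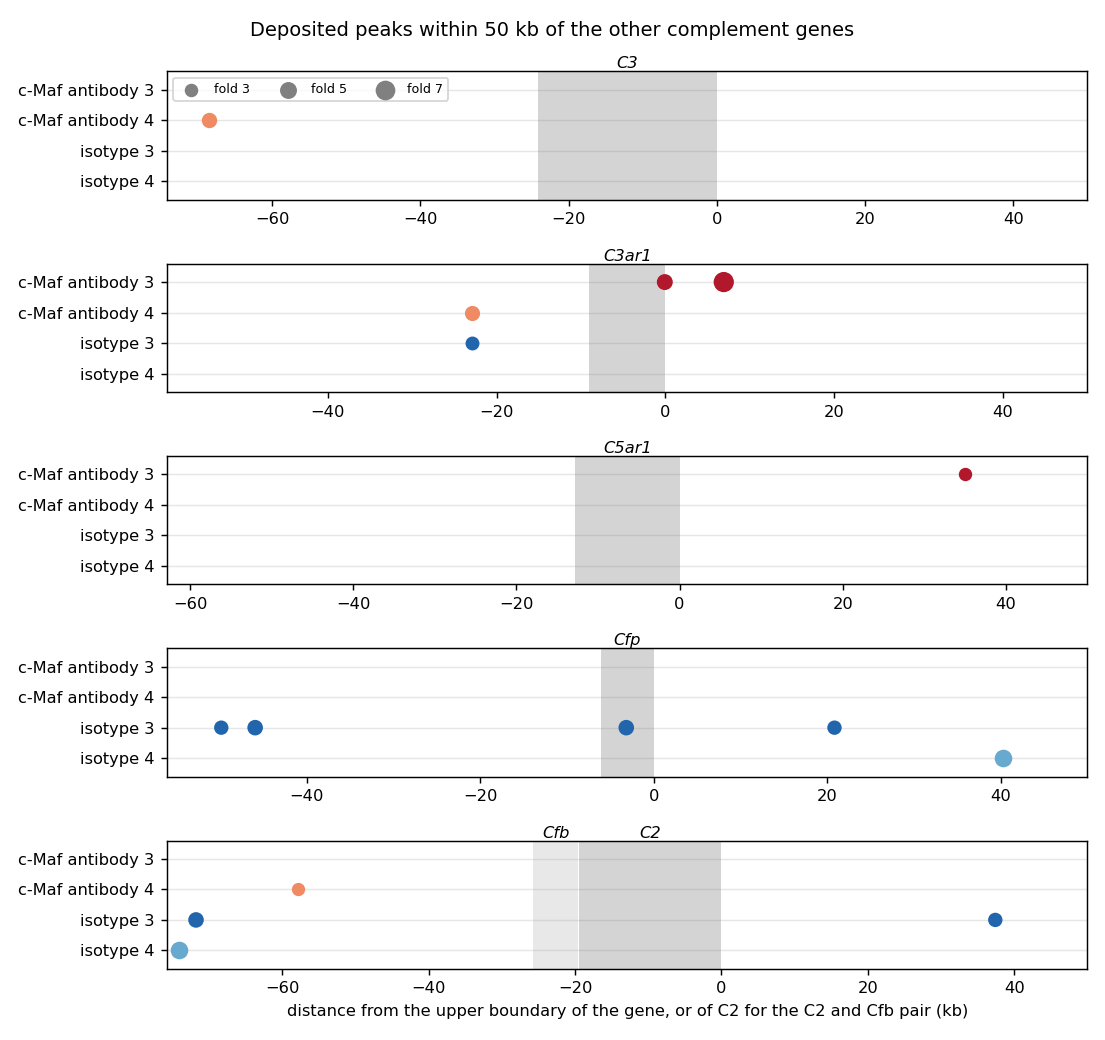
Peaks within 50 kb of the 6 other complement genes, by library (rows) and by distance in kb from the upper boundary of the gene, or of C2 for the adjacent C2 and Cfb; circle area scales with fold enrichment and gene spans are shaded. No place has a circle in both c-Maf antibody rows, and the circles near Cfp are all in isotype rows.

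**Figure D4:**
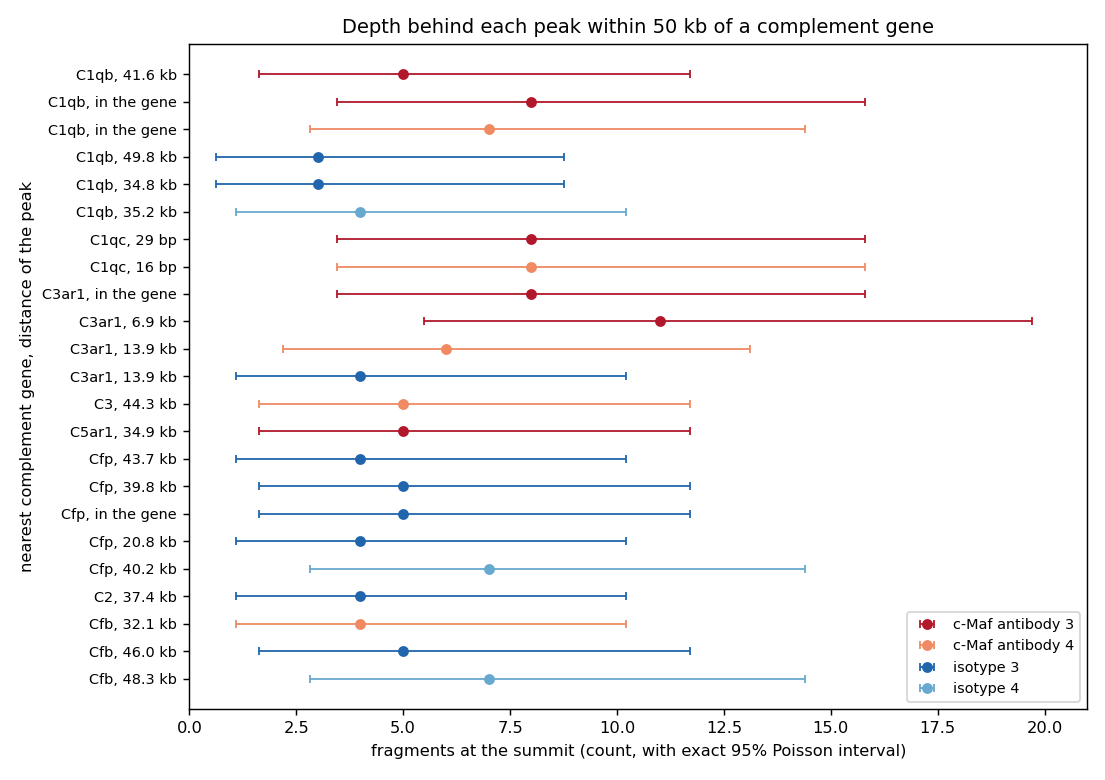
Fragments at the summit of each of the 23 peaks (horizontal axis, count with exact 95% Poisson interval), labelled by the nearest complement gene and the distance to it, and coloured by library. Counts run from 3 to 11, the c-Maf antibody peaks at the C1q starts hold 7 or 8, and all intervals overlap; "in the gene" means any overlap with its span.

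Over the 118.7 kb around the C1q cluster, the c-Maf antibody libraries had 3 (number 3) and 2 (number 4) peaks, and the isotype libraries had 2 and 1. The difference of the means was 1.0 peak (exact permutation test, two-sided, p = 0.667). With 2 libraries against 2 no p under 0.333 is possible. Over the 577.8 kb around the 6 other genes, the c-Maf antibody libraries had 3 and 3 peaks and the isotype libraries 7 and 2, a difference of -1.5 (exact permutation p = 1.0). The 7 peaks came from the longest list, and without that library, isotype number 3, the difference was 1.0, against -4.0 without isotype number 4.

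Per 100 kb of window, the C1q cluster had 2.53 and 1.68 peaks in the c-Maf antibody libraries, where the other genes had 0.519 in each. In the isotype libraries the cluster had 1.68 and 0.842, where the other genes had 1.21 and 0.346. The cluster minus the other genes was thus 2.01 and 1.17 peaks per 100 kb in the c-Maf antibody libraries, against 0.473 and 0.496 in the isotype libraries. With the full lists and 50 kb windows the groups met at 1.68 at the cluster alone. In that setting they were apart only in the rate minus that of the other genes. How often other loci would part the groups in this way was not tested. The difference between the group means of the subtracted rate was 1.10, with the smallest p that 2 against 2 allows (exact permutation test, two-sided, p = 0.333). This difference was 0.335 at q-values of 0.05 or smaller (exact permutation p = 1.0), 0.681 when number 3 of the c-Maf antibody was left out, and 6.96 within 5 kb. Within 5 kb the cluster alone had 6.96 peaks per 100 kb in each c-Maf antibody library and 0.0 in each isotype library. Over all assembled chromosomes the c-Maf antibody lists held 0.853 and 0.639 peaks per 100 kb, and the isotype lists 2.15 and 0.564.

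A peak in a single list within 50 kb said little by itself. The c-Maf antibody list of number 3 had one near 5 of the 9 members, against 66.7% of all genes, and that of number 4 near 7 of 9, against 53.8%. The isotype list of number 3 had one near 6 of 9, against 85% of all genes, and that of number 4 near 4 of 9, against 47.3%. These counts were close to or below what all genes gave in 3 lists, and above it in the c-Maf antibody list of number 4, where Cfb and C2 share 1 peak and the C1q genes share 2.

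Promoter letters were searched on both strands in the 6 members with a RefSeq promoter window. TGCTGA was found in 4 of them, C1qb, C3, C3ar1 and C5ar1, and in 19.5% of all 32851 windows. Only the C1qb match lay inside a peak, at 136886326 to 136886331, where it was covered by the c-Maf antibody peaks of both numbers. TGCTGA was also found in 6 of the 16 windows that a c-Maf-only region overlapped. TGCTGA followed after 1 or 2 bases by its reverse complement, a complete Maf recognition element, was found in no member and in 0.0122% of all windows. GAGGAAG was found in C1qc alone (13.6% of all windows), at 136893102 to 136893108, inside the c-Maf antibody peak of number 3 and outside that of number 4. TGANTCA was found in C3ar1 alone (7.81%), TTGCNNAA, a C/EBP type motif, in C3 alone (10.8%), and CACGTG, the E-box, in no member (7.15%). These are matches of letters in the window and not bound sites.

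Of 41 further complement genes, covering proteases, lectins, the membrane attack components, inhibitors and receptors, 40 were matched to a protein-coding gene, C5 under its mouse symbol Hc. Only 1 of the 40, or 2.5%, was within 50 kb of a c-Maf-only region, against 3.17% of all genes. This region, 128063612 to 128063742 of chromosome 7, lay inside Itgam, which encodes the alpha chain of complement receptor CR3. Its fold enrichment was 4.55 in number 3 and 6.03 in number 4. An isotype-only region lay within 50 kb of C5, named here after its value was seen, and of no other gene of the 40. Of all genes, 1.45% had one. Counted list by list, c-Maf antibody peaks lay within 50 kb of 30 (number 3) and 18 (number 4) of the 40 genes, against 66.7% and 53.8% of all genes. Isotype peaks lay within 50 kb of 33 (number 3) and 16 (number 4), against 85% and 47.3% of all genes.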

How the data were processed

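Chromatin immunoprecipitation followed by sequencing (ChIP-seq) gave 1 peak list for each of 4 antibody libraries. Per the file headers, peaks were called with MACS 2.1.1.20160309 on single-end tags of 50 bp, keeping at most 1 tag at any position and peaks with p-values up to 0.01, the larger library scaled to the smaller, an effective genome size set to human, and the number 4 input as control. The submitters' processing notes name mm10, FastQC, MACS 1.4.2 and MACS2, with no aligner given in the sources used here. The values deposited for a peak are its pileup signal, a fold enrichment (a ratio), the −log10 of its p-value and q-value, and its length, all computed by the authors. They describe peaks within a list.

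Pileups divided by the header's scaling factor gave whole fragments for every peak (within 0.005 scaled tags). A fragment here is a 50 bp tag taken at the fragment length that MACS set. This length was 63 and 60 bp in c-Maf antibody numbers 3 and 4, and 53 and 56 bp in isotype numbers 3 and 4, little more than the tag. The input level was recovered from the deposited ratio with 1 added to both parts, and p-values recomputed so differed by at most 0.02 (−log10) for 99.99% or more of each list. Fragments at a summit set the precision, since median peaks held 4 to 6. Gene spans came from a RefSeq table of GRCm38.p6, without exons, and distances run to the nearest gene boundary. Computation used Python 3.11.15, pandas 2.3.3, numpy 2.4.6, scipy 1.17.1 and matplotlib 3.10.9, and region building was tested on simulated data. The named genes are the 9 members, further complement genes with a c-Maf-only region, genes beside or under a peak described, and C5, named after its value was seen. The members, gene lists, windows and motifs were chosen with earlier results of these data known, so no count of them is independent evidence. p-values compare libraries, whose spread may be partly technical.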

Additional observations from a re-analysis of the deposited data

How the results depend on the processing

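Windows of 5 kb or 100 kb, lists cut to the shortest, 50% reciprocal overlap and summits within 200 bp left 2 c-Maf-only regions at the C1q cluster, 0 at the other genes and 3 member genes with one. The share of all genes with one was 1.22%, 5.33%, 2.65%, 1.88% and 3.57% in that order, against 3.17% in the main setting. At q-values of 0.05 or smaller the cluster had 0 regions and 0 member genes had one, because 3 of the 4 C1q peaks do not reach that level, and the difference in peaks at the other genes turned to 0.5. Only 47 c-Maf-only regions were left there, near 0.32% of all genes, so 0 of 9 members says little. With 1 library left out, regions numbered 2 to 3 at the cluster and 0 to 3 at the other genes, near 3 to 6 member genes. Without isotype number 3 or number 4 there were 3 members with one, against 3.26% and 3.33% of all genes. A lone c-Maf antibody list is not filtered by a replicate: without c-Maf antibody number 3 the other genes had 2 regions and 6 members had one (53.0% of all genes), and without number 4 these were 3 regions and 5 members (65.8%). The antibody difference then ranged from 0.5 to 1.5 peaks at the cluster and from -4.0 to 1.0 at the other genes, where it turned to 1.0 without the isotype library of number 3, and the difference between cluster and other genes from 0.681 to 1.52 peaks per 100 kb. It was 6.96 within 5 kb and 0.335 at q-values of 0.05 or smaller, and kept its sign under all 9 alternatives. With the number as a replicate block, the counts were 2, 0 and 3 and the differences 1.0, -1.5 and 1.10 (exact permutation over 2 pairs, smallest p 0.5). These counts and differences were those of the main setting, and 3.18% of all genes had a region. With p-values this coarse no call could have changed, and 2 pairs cannot show a pairing.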
